A study of Homo sapiens with 4 samples.

Results

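The genes described here encode cohesin, the factors that load it on chromatin and release it, and CTCF. They were taken by name: 10 of the 60656 gene IDs in the deposited count files, and all 10 were among the 19103 genes that could be tested. They comprise the cohesin ring subunits SMC1A, SMC3 and RAD21, the alternative ring-bound subunits STAG1 and STAG2, the loader NIPBL, the release factor WAPL, the regulatory subunits PDS5A and PDS5B, and the DNA-binding protein CTCF.

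Cohesin is a ring-shaped complex that holds sister chromatids together after replication and, throughout interphase, extrudes DNA into loops. NIPBL drives loading and extrusion, WAPL opens the ring and takes cohesin off DNA, and PDS5 proteins act with WAPL in release and with other partners in protecting bound cohesin. CTCF bound at its motif stops extruding cohesin, which sets loop anchors and domain borders. Type II topoisomerases work on the same chromatin, where they pass one duplex through another.

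The cells were HCT116, from a human colorectal carcinoma, and the readout was TTchem-seq, in which new RNA is labelled with 4-thiouridine, chemically fragmented, purified and sequenced. The DKO group (2 libraries) carried TOP2A fused to mAID, a degron that auxin activates, in a TOP2B -/- background and received 500 µM auxin (indole-3-acetic acid) for 8 h, so TOP2A was to be removed as protein, although the labels call the genotype a double knockout. The WT group (2 libraries) is called wildtype in the labels. The protocol also names a TOP2A mAID line without the TOP2B edit in its name and gives auxin for the double line alone, so whether the WT libraries carry the degron tag is not given in the sources used here. Both groups were held in G1 with 2 µM palbociclib, a CDK4 and CDK6 inhibitor, for 28 h; the 4-thiouridine pulse was 1 mM and lasted 30 min. Loss of the enzymes, auxin and differences between cell clones cannot be told apart in this design. No source used here says that the replicates were separate cultures, so p-values speak only for these libraries. Those of the main test rest on a spread largely pooled over genes.

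The libraries held 51142867 to 53777749 counted reads. The chi-square per degree of freedom between libraries of 1 group was 3.43 in DKO and 3.02 in WT, above sampling noise, so each library was kept as a sample. Levels are in CPM, read counts scaled to a fixed library total. TOP2A stood at 165 and 168 CPM in DKO and 126 and 122 CPM in WT, and TOP2B at 147 and 150 CPM in DKO and 140 and 143 CPM in WT. Neither value checks the labels, since a degron acts on protein and a count over a whole gene can miss an edit that stops the protein. Of 7 colorectal epithelial markers, EPCAM, KRT8, KRT18, KRT19 and CDH1 were expressed, at 430 and 417 CPM summed over the list in DKO and 490 and 457 CPM in WT. KRT8, KRT18 and CDH1 were called lower in DKO, and the part of this in the results below was not tested. CDX1 and VIL1, which are also epithelial, had no more than 11 reads in any library. The leukocyte genes PTPRC and CD3E had no more than 4. The fibroblast list summed to 3.04 and 3.71 CPM in DKO and 3.53 and 3.8 CPM in WT, nearly all of it COL1A1 (158 and 192 reads in DKO, 181 and 192 in WT), with COL1A2 at 0 and PDGFRB at no more than 6 reads. Of the endothelial genes, VWF had 41 and 45 reads in DKO libraries, against 47 and 45 in WT libraries. PECAM1 had 15 and 16 in DKO libraries, against 18 and 17 in WT libraries. No tested gene of the fibroblast and endothelial lists was called. In bulk samples such as these, fewer cells of a type and less RNA per cell cannot be told apart.

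RefSeq (GRCh38.p14, the hg38 build named in the submitters' processing notes) holds promoter windows for 9 of the 10 genes, each 300 bases long from 250 before to 50 after an annotated start; RAD21 is the other gene. Of these, 6 windows are shown, for the loader and for the paralog pairs STAG1 with STAG2 and PDS5A with PDS5B, because the results below turn on those genes. Capitals mark matches, on either strand, to the motifs searched: TTTNGCGC (E2F), CACGTG (E-box), GGGCGG (SP/KLF), CCGGAAG (ETS), and core motifs of CTCF, NRF1 and YY1.
NIPBL, chr5:36876519-36876818, plus strand: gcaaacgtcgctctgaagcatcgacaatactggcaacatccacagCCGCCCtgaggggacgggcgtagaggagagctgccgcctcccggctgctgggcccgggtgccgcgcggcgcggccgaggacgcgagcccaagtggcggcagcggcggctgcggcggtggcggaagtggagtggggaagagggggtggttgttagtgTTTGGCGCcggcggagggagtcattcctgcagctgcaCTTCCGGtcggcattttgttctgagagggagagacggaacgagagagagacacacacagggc
PDS5A, chr4:39977862-39978161, minus strand: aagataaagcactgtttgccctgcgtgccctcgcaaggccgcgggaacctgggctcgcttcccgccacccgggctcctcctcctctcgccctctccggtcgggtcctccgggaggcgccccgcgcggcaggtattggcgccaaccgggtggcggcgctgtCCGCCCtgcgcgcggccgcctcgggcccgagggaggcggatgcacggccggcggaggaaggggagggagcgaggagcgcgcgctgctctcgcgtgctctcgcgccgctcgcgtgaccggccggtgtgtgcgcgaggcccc
PDS5B, chr13:32586202-32586501, plus strand: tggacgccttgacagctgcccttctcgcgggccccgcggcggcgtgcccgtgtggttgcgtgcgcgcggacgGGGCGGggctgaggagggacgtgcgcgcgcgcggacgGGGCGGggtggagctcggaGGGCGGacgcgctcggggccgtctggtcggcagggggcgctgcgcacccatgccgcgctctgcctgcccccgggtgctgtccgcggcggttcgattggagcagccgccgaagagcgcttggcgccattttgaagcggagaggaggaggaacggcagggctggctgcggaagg
STAG1, chr3:136752329-136752628, minus strand: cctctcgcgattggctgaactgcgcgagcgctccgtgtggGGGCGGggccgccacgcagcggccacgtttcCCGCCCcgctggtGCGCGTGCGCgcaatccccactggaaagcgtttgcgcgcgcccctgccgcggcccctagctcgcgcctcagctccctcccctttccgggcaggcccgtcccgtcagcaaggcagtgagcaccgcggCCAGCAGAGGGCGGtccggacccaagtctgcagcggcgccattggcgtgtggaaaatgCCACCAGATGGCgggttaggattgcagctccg
STAG2, first start, chrX:123960310-123960609, plus strand: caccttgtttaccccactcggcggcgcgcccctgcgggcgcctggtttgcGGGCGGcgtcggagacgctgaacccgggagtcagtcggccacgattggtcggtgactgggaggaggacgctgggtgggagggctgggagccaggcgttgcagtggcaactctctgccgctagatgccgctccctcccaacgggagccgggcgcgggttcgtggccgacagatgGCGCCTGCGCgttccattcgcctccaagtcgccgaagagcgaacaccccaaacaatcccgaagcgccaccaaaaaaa
STAG2, last start, chrX:123961808-123962107, plus strand: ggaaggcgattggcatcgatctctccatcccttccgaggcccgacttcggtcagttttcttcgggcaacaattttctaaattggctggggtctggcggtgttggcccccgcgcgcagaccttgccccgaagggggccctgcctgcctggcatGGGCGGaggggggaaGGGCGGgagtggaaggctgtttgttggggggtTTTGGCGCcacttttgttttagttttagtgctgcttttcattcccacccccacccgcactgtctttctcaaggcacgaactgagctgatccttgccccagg

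All 12 windows of the 9 genes held the SP/KLF letters, which 45% of all 35116 promoter windows hold. The E2F letters, found in 1.79% of windows, were in NIPBL and in the last STAG2 window. STAG1 alone held the CTCF letters (2.41% of windows), at 2 places, the first of which overlaps an SP/KLF match. NRF1 letters (5.78% of windows) were in STAG1, STAG2 and WAPL, and ETS letters (10.3%) in NIPBL and SMC1A. The E-box letters (7.26% of windows) and YY1 letters (0.849%) were in none of these 12 windows. PDS5A and PDS5B both showed SP/KLF matches and no other.

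Of the 10 genes, 4 were higher in DKO (RAD21, NIPBL, PDS5B and STAG2) and none was lower. The test was the quasi-likelihood test of edgeR fitted to all tested genes, and calls were made where the p-value, adjusted by Benjamini-Hochberg over all of them, was under 0.05. Of all tested genes 19.0% were called higher and 21.1% lower, 40.1% in either direction, so the share of members called in either direction, 4 of 10, was close to that of the whole table. Among tested protein-coding genes the shares were 20.3% higher and 25.2% lower, 45.5% in either direction. The median log2 fold change was 0.08 over the 10 genes and -0.006 over all tested genes. In 6 of the 10 both DKO libraries stood above both WT libraries, against 33.0% of all tested genes and 32.4% of the protein-coding ones. In none did both stand below, against 34.9% and 39.2%.

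**Figure D1:**
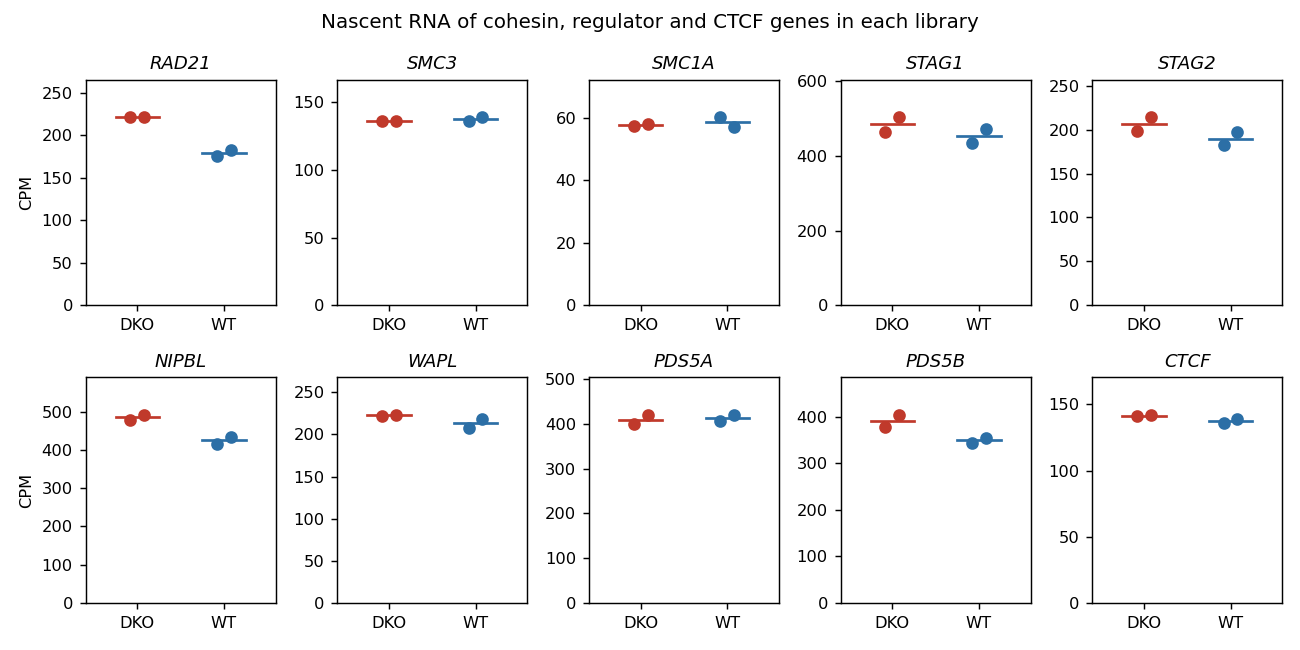
CPM (read counts scaled to a fixed library total, vertical axis, starting at 0 and scaled for each gene) in the 2 DKO and 2 WT libraries; points are libraries and lines group means. RAD21, at 221 in both DKO libraries against 176 and 182 in WT, shows the widest gap relative to its level, while the SMC1A, SMC3, STAG1 and PDS5A libraries of the groups overlap.

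Among the ring subunits, RAD21 rose and the SMC partners did not pass the test. RAD21 (ENSG00000164754, chr8:116845934-116874776), the kleisin that closes the ring and is cut by separase at anaphase, had 221 and 221 CPM in DKO (11771 and 11763 reads), against 176 and 182 CPM in WT (9131 and 9308 reads). Both DKO libraries lay above both WT libraries, and the spread within DKO was smaller than within WT. The DKO mean was 221 ± 0.36 CPM and the WT mean 179 ± 4.3 CPM (SD, n = 2 each), a 1.23-fold rise (log2 fold change 0.30 ± 0.05 SE, adjusted p = 1.30e-08). The call held in all 13 alternatives, with log2 fold changes of 0.28 to 0.34 and adjusted p-values up to 0.0469, the highest of them without WT replicate 1. Of 4 proliferation genes listed, CCNB1 (0.24 ± 0.06) and CDK1 (0.19 ± 0.05) also rose in DKO. The proliferation genes MKI67 (0.06 ± 0.05) and CCNA2 (0.07 ± 0.06) were not called. The part of cell cycle genes in the rise of RAD21 was not tested.

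SMC3 (ENSG00000108055, chr10:110567695-110606048) and SMC1A (ENSG00000072501, chrX:53374149-53422728) are the coiled-coil ATPases that form the arms of the ring. SMC3 had 136 and 136 CPM in DKO and 136 and 139 CPM in WT, a log2 fold change of -0.01 ± 0.05 (adjusted p = 0.836). SMC1A had 57.3 and 58 CPM in DKO and 60.2 and 57.1 CPM in WT, a log2 fold change of -0.02 ± 0.05 (adjusted p = 0.743). For both genes the libraries of the groups overlapped, and the sign of both turned with upper quartile scaling (0.02 for SMC3 and 0.01 for SMC1A).

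The ring genes were also set against each other within each library, which removes the scaling between libraries. RAD21 reads per SMC3 read were 1.63 and 1.62 in DKO and 1.3 and 1.32 in WT, 24.5% higher in DKO, a ratio chosen after its values were seen and not tested. SMC1A reads per SMC3 read were 0.422 and 0.427 in DKO and 0.443 and 0.412 in WT, so the DKO libraries lay between the WT libraries (exact two-sided permutation p = 1, where 0.333 is the smallest that the 6 splits of 4 libraries allow).

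STAG1 and STAG2 are paralogs, and each cohesin ring binds one of them. STAG2 (ENSG00000101972, chrX:123960560-124102656) had 198 and 214 CPM in DKO and 182 and 197 CPM in WT, with the lower DKO library barely above the higher WT library. Its log2 fold change was 0.12 ± 0.05 (adjusted p = 0.0325). This call was lost without DKO replicate 2 (0.06, adjusted p = 0.36), WT replicate 1 (0.07, adjusted p = 0.552) or WT replicate 2 (0.18, adjusted p = 0.143), and in the DESeq2 Wald test (0.12, adjusted p = 0.0885) and with no count filter (0.11, adjusted p = 0.35).

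STAG1 (ENSG00000118007, chr3:136336236-136752378), the longest of the 10 genes at 416 kb, had 465 and 503 CPM in DKO and 435 and 472 CPM in WT, and the groups overlapped. Its log2 fold change of 0.09 ± 0.05 did not pass the test (adjusted p = 0.136). It was called without DKO replicate 1 (0.15, adjusted p = 0.0193) and stood at 0.03 without DKO replicate 2 or WT replicate 1. STAG1 reads per STAG2 read were 2.34 and 2.35 in DKO and 2.38 and 2.4 in WT, a difference of -1.92% with no overlap between groups (exact two-sided permutation p = 0.333, the smallest possible). On the log2 scale the ratio differed by -0.03. Each gene alone differed by 0.11 or 0.12 between libraries of 1 group, in the same direction, so that the ratio itself varied less. Its mean was 2.35 ± 0.0045 in DKO and 2.39 ± 0.013 in WT (SD, n = 2 each).

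NIPBL (ENSG00000164190, chr5:36876769-37066413), the loader whose loss of 1 copy causes Cornelia de Lange syndrome in people, had 479 and 491 CPM in DKO and 416 and 434 CPM in WT. Both DKO libraries lay above both WT libraries. The DKO mean was 485 ± 8.7 CPM and the WT mean 425 ± 12 CPM (SD, n = 2 each), a rise of 14.1% (log2 fold change 0.19 ± 0.05, adjusted p = 8.26e-04). The call was lost without WT replicate 1 (0.16, adjusted p = 0.148) or WT replicate 2 (0.22, adjusted p = 0.0676), and with no count filter (0.18, adjusted p = 0.0508).

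WAPL (ENSG00000062650, chr10:86435256-86521792), which opposes NIPBL, had 222 and 223 CPM in DKO and 208 and 218 CPM in WT. The groups did not overlap, yet its log2 fold change of 0.06 ± 0.05 did not pass the test (adjusted p = 0.291). NIPBL reads per WAPL read were 2.16 and 2.21 in DKO and 2 and 1.99 in WT, 9.18% higher in DKO. The groups did not overlap (exact two-sided permutation p = 0.333, the smallest possible). NIPBL spans 190 kb and WAPL 86.5 kb, and a ratio within a library does not remove differences that go with gene length, given below.

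The PDS5 paralogs differed in what they showed. PDS5B (ENSG00000083642, chr13:32586452-32778019) had 378 and 404 CPM in DKO and 344 and 355 CPM in WT, a rise of 11.8% with groups apart (log2 fold change 0.16 ± 0.05, adjusted p = 0.00472). PDS5A (ENSG00000121892, chr4:39822863-39977911) had 399 and 420 CPM in DKO and 406 and 419 CPM in WT, with groups that overlapped and a log2 fold change of -0.01 ± 0.05 (adjusted p = 0.895) that turned to 0.03 with upper quartile scaling. PDS5B lost its call without DKO replicate 2 (0.11, adjusted p = 0.0938), WT replicate 1 (0.14, adjusted p = 0.247) or WT replicate 2 (0.18, adjusted p = 0.131), and with no count filter (0.15, adjusted p = 0.124).

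PDS5A reads per PDS5B read were 1.06 and 1.04 in DKO and 1.18 and 1.18 in WT. The difference was -11.1% and the groups did not overlap (exact two-sided permutation p = 0.333, the smallest possible). With any 1 library left out the log2 difference was -0.181 to -0.160. Its sign could not turn, since the groups did not overlap.

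CTCF (ENSG00000102974, chr16:67562526-67639177), a zinc finger protein, had 141 and 142 CPM in DKO and 136 and 139 CPM in WT. Both DKO libraries lay above both WT libraries by a small margin, and the log2 fold change of 0.04 ± 0.05 did not pass the test (adjusted p = 0.482) or any of its 13 alternatives, which gave 0.03 to 0.08.

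**Figure D2:**
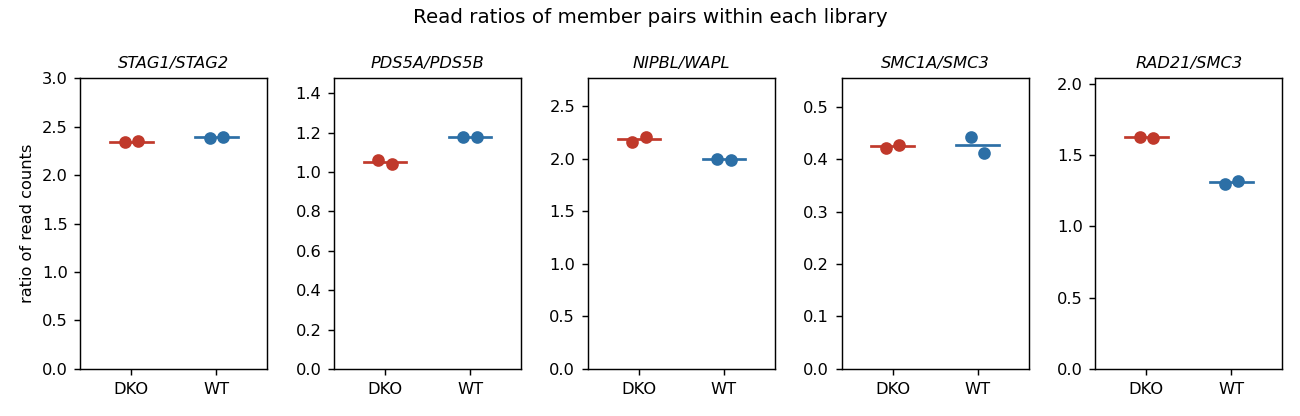
Ratio of the read counts of 2 genes within each library (vertical axes start at 0); points are libraries, lines group means, DKO left and WT right. The PDS5A/PDS5B ratio is lower in DKO (1.06 and 1.04) than in WT (1.18 and 1.18), the RAD21/SMC3 and NIPBL/WAPL ratios are higher, and STAG1/STAG2 and SMC1A/SMC3 are close to level.

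**Figure D3:**
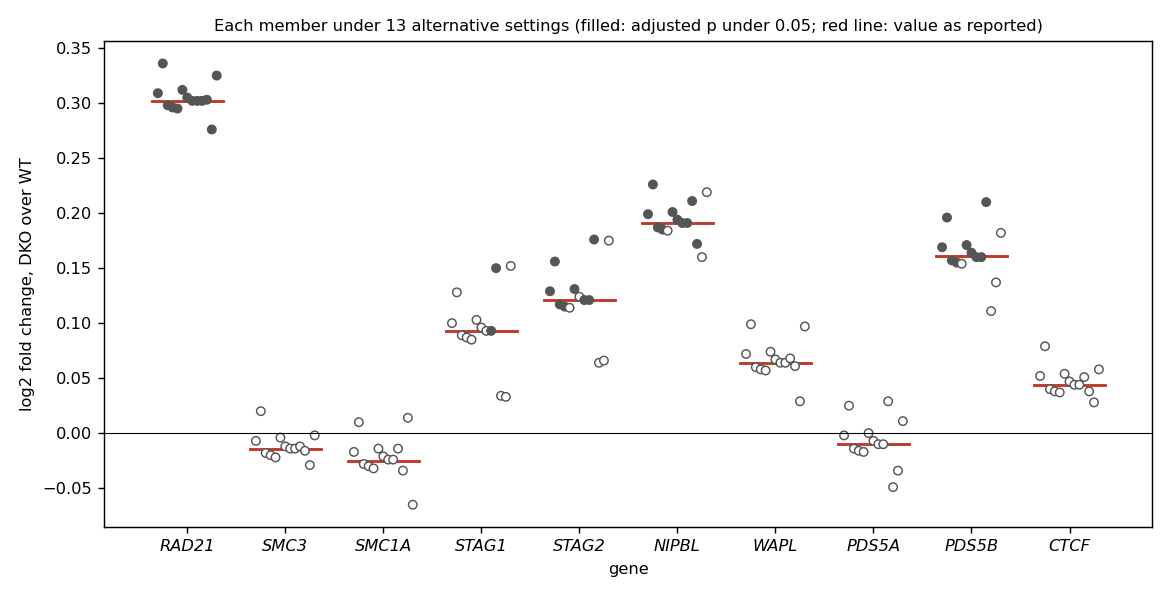
Log2 fold change of each gene (DKO over WT) under each of 13 alternative settings (points, filled where the adjusted p is under 0.05), with the reported value as a red line. RAD21 is filled throughout, NIPBL in 10, PDS5B in 9, STAG2 in 8 and STAG1 in 2 of the 13, and no other gene in any.

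Levels were compared between genes as CPM per kb of annotated span, which assumes that reads were counted over whole gene bodies, a setting not given in the sources used here. In DKO the order was RAD21 (7.66 CPM per kb), SMC3 (3.54), PDS5A (2.64), WAPL (2.57), NIPBL (2.56), PDS5B (2.04), CTCF (1.84), STAG2 (1.45), SMC1A (1.19) and STAG1 (1.16). In WT the order was the same, with RAD21 at 6.21 and STAG1 at 1.09 CPM per kb. Neighbours in the order whose libraries overlapped were PDS5A with WAPL, WAPL with NIPBL and SMC1A with STAG1 in DKO, and PDS5B with CTCF in WT. The span from RAD21 to STAG1 was 6.6-fold in DKO.

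The changes were set beside the length of the genes, since long genes as a class differed between the groups. With protein-coding genes cut into 10 classes of equal size by span, the median log2 fold change was -0.14 in the shortest class and 0.10 in the longest. NIPBL (190 kb), PDS5B (192 kb) and STAG1 (416 kb) lie in the longest class, of which 61.3%, 58.8% and 49.3% had a smaller fold change. STAG2 (142 kb) stood above 63.1% and PDS5A (155 kb) above 40.6% of the next class, whose median was 0.05. RAD21, at 28.8 kb, lies in a class with a median of -0.02 and stood above 88.9% of it. Of the other genes in each class, 37.9% were called higher in DKO in that of NIPBL and PDS5B and 32.2% in that of STAG2. The share was 28.8% in the class of WAPL and CTCF and 17.1% in that of RAD21. Some ratios above pair genes of unlike classes, with medians of 0.10 and 0.03 for NIPBL and WAPL. For PDS5A and PDS5B the class medians were 0.05 and 0.10, and for STAG1 and STAG2 0.10 and 0.05. The part of gene length in these ratios and in the rises of NIPBL, PDS5B and STAG2 was not tested.

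Libraries of 1 group differed along the same axis. For each of the 5 genes over 100 kb (STAG1, STAG2, NIPBL, PDS5A and PDS5B) replicate 2 was above replicate 1 in both groups, by 0.04 to 0.11 on the log2 scale in DKO and 0.05 to 0.12 in WT. The median difference over the longest class of genes was 0.08 in DKO and 0.04 in WT. Of the shorter genes, RAD21, SMC3, WAPL and CTCF moved by no more than 0.01 between the DKO libraries, but by 0.05 (RAD21), 0.03 (SMC3), 0.07 (WAPL) and 0.03 (CTCF) between the WT libraries, where RAD21 and WAPL thus moved about as much as NIPBL (0.06), PDS5A (0.05) and PDS5B (0.05). SMC1A moved by 0.02 in DKO and -0.08 in WT.

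**Figure D4:**
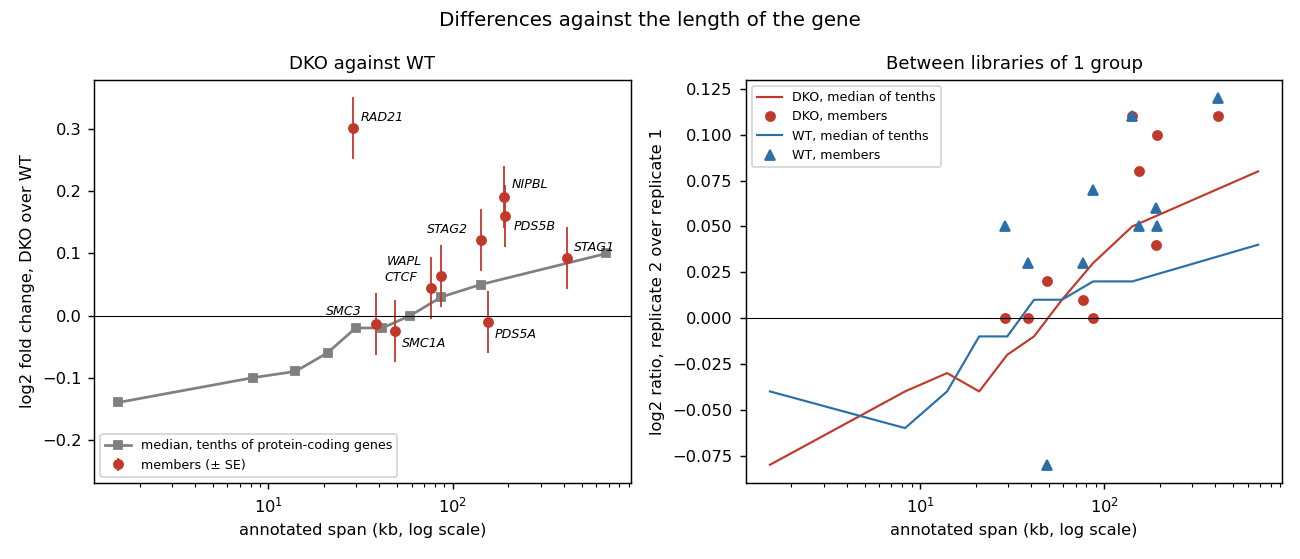
Left, log2 fold change of the 10 genes (red, ± SE) against annotated span in kb (log scale), with the median of each of 10 length classes of protein-coding genes in grey; right, log2 ratio of replicate 2 over replicate 1 in DKO (red) and WT (blue), with lines for the class medians. The class medians climb from -0.14 to 0.10 on the left, most members lie near or above that line, and RAD21 at 0.30 lies farthest from it.

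Chromosomes were considered in the same way. Other tested genes had a median log2 fold change of 0.03 on chromosome 8 (592 genes, RAD21 above 78% of them), 0.03 on chromosome 5 (NIPBL above 74.4%), 0.04 on chromosome 13 (PDS5B above 67%) and -0.02 on chromosome X (STAG2 above 70.1%). CTCF lies on chromosome 16, where the median was -0.09 and CTCF stood above 71.2% of genes. None of the 10 genes lies on chromosome 20, whose tested genes had a median of -0.59.

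The pattern nearest to RAD21 over the 4 libraries, by Euclidean distance of log2 CPM deviations from the WT mean among 5758 well-transcribed protein-coding genes, was that of APP, the amyloid precursor protein gene (distance 0.0128). STXBP3, of vesicle fusion (0.0141), and ASTN2 (0.0198) followed, each with a log2 fold change of 0.30.

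On the RefSeq annotation, 6 transcripts that overlap a member or lie beside one had enough reads to be tested. Of these 2 were called, against 40.1% of all tested genes called in either direction. NIPBL-DT, a divergent RNA whose annotated start lies 74 bp from NIPBL, had 953 and 863 reads in DKO and 755 and 780 reads in WT, a rise of 0.19 ± 0.08 on the log2 scale (adjusted p = 0.032), the same size as that of NIPBL. WAPL-DT, 154 bp from WAPL, had 243 and 238 reads in DKO and 307 and 304 reads in WT and fell, with a log2 fold change of -0.40 ± 0.11 (adjusted p = 0.00193), while WAPL itself was not called. RAD21-AS1, which overlaps RAD21 by 353 bp, had 24 and 21 reads in DKO and 10 and 15 in WT (log2 fold change 0.79 ± 0.36, adjusted p = 0.0717), too few beside the RAD21 reads to shift its value if they were shared. STAG2-AS1 had 63 and 71 reads in DKO and 57 and 46 in WT (log2 fold change 0.33 ± 0.21, adjusted p = 0.204). STAG1-DT, 292 bp from STAG1, had 95 and 107 reads in DKO and 112 and 87 in WT (log2 fold change -0.03 ± 0.16, adjusted p = 0.912). RIBC1, 144 bp from SMC1A, had 25 and 20 reads in DKO and 22 and 19 in WT (log2 fold change 0.08 ± 0.33, adjusted p = 0.865). Calls of these transcripts were not rerun with libraries left out.

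A further list was read beside these genes. Of 18 cohesin cofactors and meiotic subunits, 16 could be tested, of which 3 rose and 3 fell, with a median log2 fold change of -0.01. These counts are close to the shares of all tested genes, 19.0% higher and 21.1% lower. PTTG1, the securin that holds separase inactive, had 22.4 and 24.1 CPM in DKO and 17.1 and 17.5 CPM in WT (0.43 ± 0.07, adjusted p = 5.84e-08), and it was called in all 13 alternatives. SGO2, a shugoshin that shields centromeric cohesin in meiosis, had 47.9 and 48.4 CPM in DKO and 39.8 and 40.9 CPM in WT (0.25 ± 0.05, adjusted p = 5.05e-05), and was not called without WT replicate 1 (0.23, adjusted p = 0.0725). Both genes peak late in the cell cycle, and CCNB1 (48.6 and 44.4 CPM in DKO, 38 and 40.7 CPM in WT) and CDK1 (123 and 115 CPM in DKO, 101 and 107 CPM in WT) rose beside them (adjusted p = 1.48e-04 and 3.98e-04), while MKI67 (0.06) and CCNA2 (0.07) were not called. Summed over these 4 proliferation genes the level was 367 and 349 CPM in DKO and 325 and 330 CPM in WT. TOP2A, whose RNA also peaks late in the cycle, rose as well (0.42 ± 0.05, adjusted p = 3.46e-15). The part of these genes' rise in the rises of PTTG1 and SGO2 was not tested.

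The other rise was RAD21L1, a meiotic kleisin on chromosome 20, at 75 and 78 reads in DKO and 52 and 45 reads in WT (0.61 ± 0.20, adjusted p = 0.0104). It lost its call without DKO replicate 2 (adjusted p = 0.0571), WT replicate 1 (0.0945) or WT replicate 2 (0.136), with no count filter (0.061) and in the DESeq2 Wald test (0.18). The other meiotic subunits, REC8, SMC1B and STAG3, had 10 to 76 reads per library and were not called.

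The genes that fell were CHTF18, DSCC1 and HASPIN. They span 9.46, 21.9 and 2.8 kb, in length classes with median log2 fold changes of -0.10, -0.06 and -0.14. The cofactors that rose, PTTG1, RAD21L1 and SGO2, span 6.89, 29.8 and 58 kb, in classes with medians of -0.10, -0.02 and 0.00. The part of gene length in these calls was not tested. CHTF18 and DSCC1 encode subunits of an alternative clamp loader that promotes cohesion, and HASPIN a histone H3 kinase active at centromeres. DSCC1 had 38 and 37.4 CPM in DKO and 43.9 and 45.6 CPM in WT (-0.25 ± 0.06, adjusted p = 1.00e-04), a call lost without WT replicate 1 (adjusted p = 0.0539) or WT replicate 2 (0.0616). CHTF18 had 5.77 and 7.29 CPM in DKO and 9.8 and 7.5 CPM in WT (-0.41 ± 0.10, adjusted p = 3.95e-04), and stood at -0.24 without DKO replicate 1 (adjusted p = 0.0866), -0.20 without WT replicate 1 (0.459) and -0.59 without WT replicate 2 (0.0603). HASPIN, which overlaps ITGAE, had 9.9 and 8.08 CPM in DKO and 10.9 and 10.8 CPM in WT (-0.27 ± 0.09, adjusted p = 0.00906), and was not called without DKO replicate 2 (-0.13, adjusted p = 0.356), WT replicate 1 (-0.27, adjusted p = 0.276) or WT replicate 2 (-0.28, adjusted p = 0.22). With no count filter and in the DESeq2 Wald test neither CHTF18 (adjusted p = 0.278 and 0.0522) nor HASPIN (adjusted p = 0.222 and 0.116) was called.

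The cofactors closest to the members in role did not pass the test. MAU2, the partner of NIPBL in the loader, had 39.8 and 40 CPM in DKO and 41.2 and 41.3 CPM in WT (-0.05 ± 0.06, adjusted p = 0.516), so its value did not follow that of NIPBL. The acetyltransferase genes ESCO1 (-0.07 ± 0.05) and ESCO2 (0.00 ± 0.06), which lock cohesin on DNA by acetylating SMC3, the sororin gene CDCA5 (-0.14 ± 0.06), the shugoshin gene SGO1 (0.08 ± 0.06), the separase gene ESPL1 (-0.10 ± 0.08) and the helicase gene DDX11 (-0.02 ± 0.05) were not called. ESCO2 overlaps PBK and CCDC25, and SGO1 overlaps SGO1-AS1 by 11830 bp. HDAC8, the SMC3 deacetylase, was listed at 4 reads in each of the 4 libraries, and CHTF8, which overlaps DERPC and HAS3, at 1 to 6, so neither could be assessed.

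Of 7 genes for proteins that bind beside CTCF or take part in looping, 6 could be tested, of which 2 fell and none rose (median -0.06). Of all tested genes 21.1% were called lower and 19.0% higher. LDB1, which bridges enhancers and promoters, had 30.6 and 30.6 CPM in DKO and 38.3 and 35.2 CPM in WT (-0.27 ± 0.06, adjusted p = 8.54e-05), and was not called without WT replicate 1 (-0.21, adjusted p = 0.0954) or with no count filter (-0.27, adjusted p = 0.0554). MAZ, a zinc finger factor, had 3.96 and 3.54 CPM in DKO and 5.4 and 5.31 CPM in WT (-0.51 ± 0.12, adjusted p = 1.13e-04), a call lost without WT replicate 1 (adjusted p = 0.0791) or WT replicate 2 (0.05). MAZ overlaps MVP-DT and LDB1 overlaps PPRC1 on the annotation. MAZ spans 5.04 kb and LDB1 19.4 kb, in length classes with medians of -0.14 and -0.06. VEZF1 (16.7 kb) and PATZ1 (20.5 kb), named next, are also short. The part of gene length in the falls of MAZ and LDB1 was not tested. ZNF143 (-0.11 ± 0.05), YY1 (-0.01 ± 0.05), PATZ1 (0.06 ± 0.06) and VEZF1 (0.01 ± 0.05) were not called, and CTCFL, the germline paralog of CTCF, had no more than 3 reads in a library.

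The other SMC complexes, condensin and SMC5/6, had 3 of 16 tested genes higher and none lower (median 0.04), beside 19.0% and 21.1% of all tested genes. The cohesin and CTCF genes had 4 of 10 higher and a median of 0.08, and the difference between the lists was not tested. SMC6 rose most (143 and 147 CPM in DKO, 110 and 113 CPM in WT, 0.38 ± 0.05, adjusted p = 8.90e-13), ahead of the condensin ATPase gene SMC4 (218 and 216 CPM in DKO, 172 and 177 CPM in WT, 0.31 ± 0.05, adjusted p = 3.10e-09), which overlaps the read-through locus TRIM59-IFT80. Both were called in all 13 alternatives. Of the cell cycle genes named above, CCNB1, CDK1 and TOP2A rose and MKI67 (0.06) and CCNA2 (0.07) were not called. The part of cell cycle genes in the rises of SMC6 and SMC4 was not tested. NSMCE2, a SUMO ligase of SMC5/6, had 523 and 579 CPM in DKO and 458 and 484 CPM in WT, a log2 fold change of 0.22 ± 0.05 (adjusted p = 1.03e-04), and was not called without WT replicate 1 (0.18, adjusted p = 0.216) or WT replicate 2 (0.26, adjusted p = 0.0902), or with no count filter (0.22, adjusted p = 0.119). NSMCE2 spans 275 kb, SMC6 90 kb and SMC4 35.3 kb, in length classes with medians of 0.10, 0.03 and -0.02. The part of gene length in their rises was not tested. RAD21, SMC4 and SMC6 thus rose by 0.30 to 0.38. The SMC partners in their complexes, SMC1A, SMC3, SMC2 and SMC5, had values of -0.02 to 0.03 and were not called. This pattern was picked out after the values were seen.

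**Figure D5:**
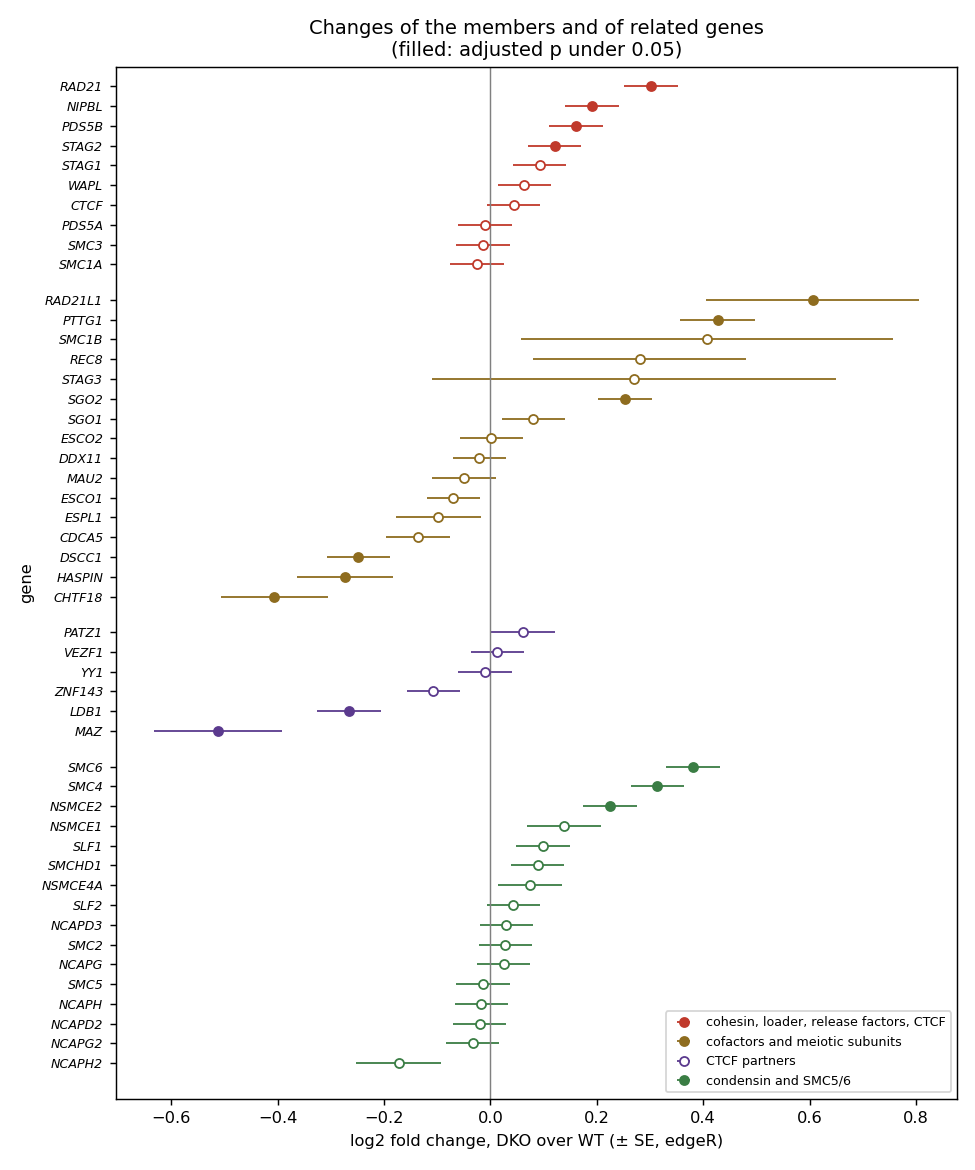
Log2 fold change (DKO over WT, ± SE from edgeR) of every tested gene of the 4 lists, filled where the adjusted p is under 0.05. RAD21 (0.30), NIPBL (0.19), PDS5B (0.16) and STAG2 (0.12) are filled among the cohesin and CTCF genes; RAD21L1 (0.61), PTTG1 (0.43), SMC6 (0.38) and SMC4 (0.31) are filled and lie beyond them, and MAZ (-0.51) and CHTF18 (-0.41) lie farthest to the left.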

How the data were processed

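Per the submitters' processing notes, STAR 2.7.3a, featureCounts 1.6 and hg38 were used. The authors deposited 1 file of raw read counts per library, keyed by Ensembl gene. No source used here gives the gene set, strand setting or feature counted, so reads of overlapping genes cannot be told apart. Without a spike-in, all levels are shares of a library.

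IDs were matched to symbols (42020 of 60656) and RefSeq spans (40214). The test was the quasi-likelihood test of edgeR 4.0.16 (R 4.3.3) on 19103 genes passing filterByExpr (minimum count 10, total 15), with TMM scaling, group as the only term and Benjamini-Hochberg adjustment. Errors are the absolute log2 fold change over the root of F. They largely pool the spread over genes, at a coefficient of variation of 3.46%, and can be too small for a gene whose libraries disagree. The procedure was tested on simulated data, in which far fewer genes were changed than were called here. It called 12.0% of genes changed 1.1-fold, 70.0% of those changed 1.25-fold and 0.04% of unchanged genes. Small changes can thus go uncalled.

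Alternatives were 3 other scalings, 2 other filters, a fit without chromosome 20, DESeq2 1.42.0, limma 3.58.1 voom, the replicate number as a block, and each library left out. A lone library is then assumed to vary like the other group. The members, lists and alternatives were chosen with earlier results of these data known. Named genes are all members, the called cofactors and CTCF partners, the 3 largest called changes each way in the other SMC complexes (none was called lower), and the 3 nearest patterns to the member that changed most; neighbouring transcripts and the uncalled partners named beside them were chosen after their values were seen. Protein sequences are not used here, and the planned comparison of paralog proteins was not made.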

Additional observations from a re-analysis of the deposited data

How the results depend on the processing

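RAD21 kept its direction and its call under all 13 alternatives. With no count filter, 1 member, 1640 genes in all higher and 1655 lower, 1 cofactor lower and 1 CTCF partner lower were called. The DESeq2 Wald test called 2346 genes higher and 2466 lower, with 1 cofactor lower. Upper quartile scaling gave 5 condensin and SMC5/6 genes higher, and turned SMC1A to 0.010, SMC3 to 0.020 and PDS5A to 0.025, none of them called. With at least 50 reads in 2 libraries PDS5A turned to 8.8e-05. With a library left out, members called higher ranged from 1 to 5, all genes from 1023 to 3127 higher and 928 to 3443 lower, cofactors from 1 to 3 higher and 0 to 2 lower, CTCF partners from 0 to 2 lower, and condensin and SMC5/6 genes from 0 to 1 lower. The counts fell most without a WT library, when the spread rests on the DKO pair alone. SMC1A ranged from -0.065 to 0.014 and PDS5A from -0.049 to 0.029, and the log2 difference of the SMC1A/SMC3 ratio from -0.063 to 0.044. The cause of these changes was not tested. No label ties same-numbered libraries to a shared batch, and over all tested genes their deviations correlated at r = 0.011. They did share a trend with gene length. From the shortest to the longest class, the median of replicate 2 over replicate 1 ran from -0.08 to 0.08 in DKO and from -0.04 to 0.04 in WT. Whether the replicate numbers mark a shared batch was not tested. With the replicate block 5 condensin and SMC5/6 genes were called higher and STAG1 was called (0.093, adjusted p = 0.0352), and 3742 genes were higher and 4078 lower. The member with the fewest reads, SMC1A, had 2915 or more in each library, and each group held only 2 libraries.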
